A study of Mus musculus with 12 samples.

Results

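The genes described here are 10 protein-coding genes of mouse chromosome 11 that lie near or between *Col1a1* and *Sost*: *Lrrc59*, *Abi3*, *Ikzf3*, *Etv4*, *Meox1*, *Dusp3*, *Mpp3*, *Cd300lg*, *Tmem101* and *G6pc3*. They are 10 of the 47069 genes in the count matrix, and were matched by symbol. They were chosen on the expression of these same mice, with the differences between all 3 groups counted as used, so those differences are given as a description and nothing about the genotypes is read from them. The question they address is whether genes linked to the disrupted *Sost* locus differed in expression along with it.

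RNA was sequenced from the tibia shaft of 12 male mice, with 1 library per mouse and n = 4 mice in each of 3 groups, all 8 weeks old, after the marrow had been flushed out. Jrt;Sost-het mice carried the *Col1a1*Jrt/+ allele, a dominant splice site variant of the gene for the type I collagen alpha 1 chain, with 1 disrupted *Sost* allele. The labels of this group name only the *Col1a1* genotype. Jrt;Sost-ko mice carried the same *Col1a1*Jrt/+ allele and were *Sost*-/-. These groups are called het and ko mice below. WT mice carried neither allele and were bred in a parallel colony, and in comparisons with them colony and genotype cannot be told apart. All 3 groups were of mixed FVB/C57BL6 background. The *Col1a1* allele came from FVB mice and the *Sost* allele from C57BL6 mice, and the colony descended from a mouse in which the 2 alleles had been joined on a single chromosome by recombination. The position of that crossover and the strain of each mouse's alleles around *Sost* were not measured here, so loss of *Sost* and linked strain alleles cannot be told apart in Jrt;Sost-ko mice.

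*Sost* encodes sclerostin, which osteocytes secrete and which restrains Wnt signalling and bone formation. Its expression in bone depends on a distant enhancer that lies between *SOST* and *MEOX1* in humans, and deletion of that region causes van Buchem disease, a disorder of high bone mass. Genes that lie close together on a chromosome are inherited together, so alleles of the donor strain stay attached to a disrupted gene through many generations of crossing.

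In the GRCm38 build with GENCODE M21 models, *Col1a1* and *Sost* are 7009415 bp apart. *Lrrc59* (ENSMUSG00000020869, plus strand, from 94629767 to 94645216) lies outside that interval, 291007 bp before *Col1a1*. *Abi3* (ENSMUSG00000018381, minus strand, from 95830074 to 95842476) lies within it, 877031 bp beyond *Col1a1*. *Ikzf3* (ENSMUSG00000018168, minus strand, from 98464902 to 98546031) lies near its middle, 3416426 bp from *Sost*. The other 7 genes form a cluster around *Sost*, all within the surrounding 222604 bp on either side. *Etv4* (ENSMUSG00000017724, minus strand, from 101769742 to 101785371) and *Meox1* (ENSMUSG00000001493, minus strand, from 101877510 to 101894374) lie on its *Col1a1* side, at 177086 and 68083 bp. *Dusp3* (ENSMUSG00000003518, minus strand, from 101971143 to 101987013) lies on the far side with its end 4127 bp upstream of the *Sost* gene, and is the nearest of the 10. *Mpp3* (ENSMUSG00000052373, minus strand, from 101999652 to 102028461), *Cd300lg* (ENSMUSG00000017309, plus strand, from 102041509 to 102055620), *Tmem101* (ENSMUSG00000020921, minus strand, from 102152546 to 102156404) and *G6pc3* (ENSMUSG00000034793, plus strand, from 102189620 to 102194081) follow at 32636, 74493, 185530 and 222604 bp. *Etv4*, *Meox1*, *Sost*, *Dusp3* and *Mpp3* thus share their strand.

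RefSeq promoter sequences (GRCm38.p6, from 250 bases before to 50 bases after the start) were held for 4 of the 10 genes and for *Sost*. Those of *Sost* and of the 3 held genes whose values did not overlap between ko and het mice are shown, since they are the start regions of the gene that was lost and of its linked genes. They run 5′ to 3′ on the gene's own strand. The RefSeq start of *Dusp3* lies inside its GENCODE model. Capitals mark a match to the TATA box core TATAAA, the CCAAT box CCAAT or the GC box GGGCGG on either strand.
Sost (chr11:101966966-101967265, minus strand): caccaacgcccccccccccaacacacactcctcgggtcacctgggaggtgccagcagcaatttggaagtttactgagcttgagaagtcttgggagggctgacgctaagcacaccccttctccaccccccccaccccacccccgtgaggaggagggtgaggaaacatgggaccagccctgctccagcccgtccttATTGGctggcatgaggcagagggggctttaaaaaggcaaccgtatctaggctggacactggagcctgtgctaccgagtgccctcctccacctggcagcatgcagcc
Dusp3 (chr11:101984742-101985041, minus strand): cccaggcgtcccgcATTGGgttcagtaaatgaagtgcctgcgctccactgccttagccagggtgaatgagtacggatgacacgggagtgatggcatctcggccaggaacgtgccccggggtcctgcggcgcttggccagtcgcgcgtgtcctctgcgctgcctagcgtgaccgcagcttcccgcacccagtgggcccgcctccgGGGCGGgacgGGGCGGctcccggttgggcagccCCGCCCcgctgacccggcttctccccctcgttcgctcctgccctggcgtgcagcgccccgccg
Lrrc59 (chr11:94629527-94629826, plus strand): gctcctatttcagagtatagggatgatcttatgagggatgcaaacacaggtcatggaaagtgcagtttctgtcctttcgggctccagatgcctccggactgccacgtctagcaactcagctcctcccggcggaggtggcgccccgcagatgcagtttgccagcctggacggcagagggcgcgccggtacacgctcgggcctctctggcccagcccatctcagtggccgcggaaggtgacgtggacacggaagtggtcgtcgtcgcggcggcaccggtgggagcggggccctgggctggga
Tmem101 (chr11:102156358-102156657, minus strand): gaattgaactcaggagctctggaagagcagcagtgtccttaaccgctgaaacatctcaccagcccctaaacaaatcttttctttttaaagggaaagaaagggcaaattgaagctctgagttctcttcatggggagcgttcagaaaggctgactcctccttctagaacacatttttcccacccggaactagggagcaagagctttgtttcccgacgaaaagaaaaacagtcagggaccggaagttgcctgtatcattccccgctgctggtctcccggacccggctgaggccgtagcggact

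The *Dusp3* promoter held 32 CpG dinucleotides, 1 CCAAT box and 3 GC boxes, whereas the *Sost* promoter, at 7 CpG, held 1 CCAAT box and no GC box. The *Lrrc59* and *Tmem101* promoters, with 24 and 11 CpG, held none of the 3 motifs, and neither did that of *G6pc3*, with 20 CpG. Over 32851 promoters of the same length the median was 7 CpG, and the TATA box core, the CCAAT box and the GC box occurred in 13.6%, 37.4% and 35.7%. The 5 promoters therefore ran from the median in *Sost* to well above it in *Dusp3*, and the letters say nothing of which factors bind there.

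Reads counted on genes ranged from 24366061 to 29431764 per mouse in het, from 28255411 to 37370099 in ko and from 28737276 to 44418863 in WT mice. The labels give no sequencing batch. *Sost* was 39.9 ± 20.6 CPM (the count scaled to library size, SD, n = 4) in het, 0.671 ± 0.418 in ko and 53.4 ± 18.8 in WT mice, with the lowest het mouse at 26.8 and the highest ko mouse at 1.28. Values of het and WT mice overlapped, so that *Sost* bore out the label of ko mice and did not tell the other groups apart. *Col1a1*, the defining transcript of bone-forming cells, was at 8934 CPM or more in every mouse. Transcripts of adherent tissue differed widely between mice of one group. The summed CPM of 16 skeletal muscle genes ran from 36.9 in ko mouse 4 to 31836 in WT mouse 4. All 16 were lower in ko than het mice (median on the log2 scale -1.01) and all 16 lower in ko than WT mice (-0.93), with 0 at an adjusted or unadjusted p under 0.05 in edgeR. The sum of 12 epidermis genes reached 744 in WT mice, against at most 19.0 in het and 17.5 in ko mice. Of the 6 of them that were tested, 6 were lower in het than WT mice and 6 lower in ko than WT mice (median on the log2 scale -2.84 and -2.72), with 0 at an adjusted p under 0.05 in edgeR and 4 at an unadjusted one in each. WT mice 3 and 4 held the highest epidermis sums, so comparisons with WT are also given without them. Among WT mice they also held the highest muscle sums, 13268 and 31836 CPM against 2762 and 246 in mice 1 and 2. The same held for 12 osteoblast genes, at 46403 and 69368 CPM against 35969 and 27533. Leaving them out therefore changes the muscle and bone content of the WT group as well as its skin content. Erythroid genes were higher in ko than het mice in 9 of 10 and osteoclast genes lower in 10 of 12, with 0 at an adjusted or unadjusted p under 0.05 in edgeR. Osteocyte genes were higher in 7 of 10, with 5 at an unadjusted p under 0.05 and *Sost*, lower, at an adjusted one.

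The 10 genes differed widely in level. Per kilobase of annotated exon, the mean in het mice (n = 4) was lowest for *Mpp3* at 0.320 ± 0.323 CPM and *Etv4* at 0.364 ± 0.132 CPM, which did not differ beyond their spread. *Meox1* followed at 1.60 ± 0.179 CPM per kilobase. *Abi3* (5.09 ± 0.224), *Ikzf3* (5.93 ± 0.939) and *Tmem101* (6.55 ± 0.325) lay close together in CPM per kilobase, with *Ikzf3* overlapping both in its SD. *Cd300lg* was at 8.74 ± 1.02, and *G6pc3* (11.97 ± 0.697) and *Dusp3* (12.4 ± 1.31) did not differ beyond their spread. *Lrrc59* was the most abundant, at 43.9 ± 2.32 CPM per kilobase. The counts behind these values were at least 335 per mouse for 7 of the genes. *Meox1* had between 51 and 156 counts, *Etv4* between 13 and 79, and *Mpp3* between 7 and 218, so that counting error alone was 14.0%, 27.7% and 37.8% of the value in the lowest mouse.

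**Figure D1:**
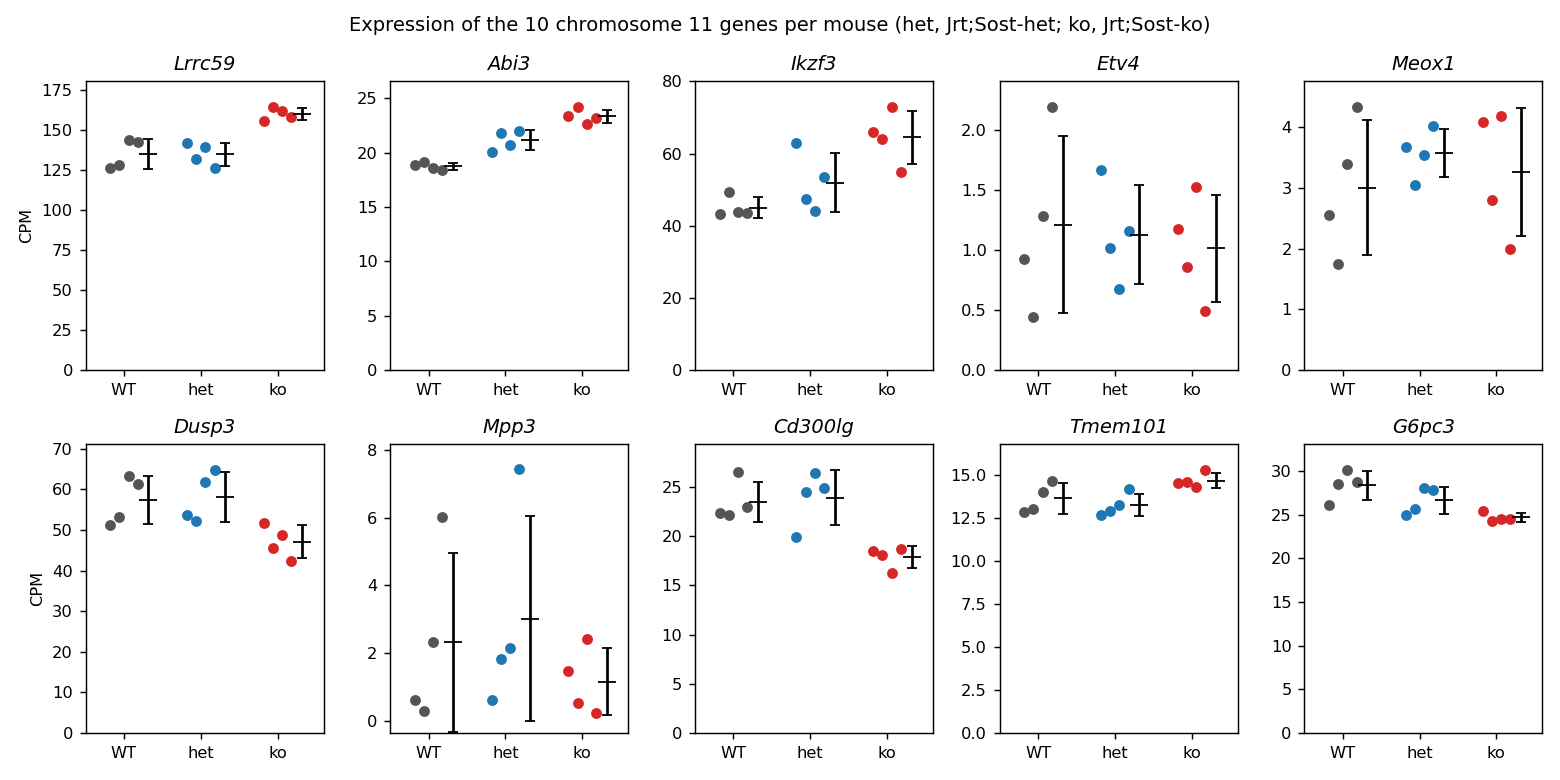
CPM of each of the 10 genes in each of the 12 mice (points), with the group mean ± SD (n = 4) beside them, in order along chromosome 11 and on a linear axis per gene. Lrrc59, Abi3, Dusp3, Cd300lg and Tmem101 show no overlap between het and ko mice, while Etv4, Meox1 and Mpp3 overlap widely.

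In ko against het mice, 5 of the 10 genes had values that did not overlap between the groups: *Lrrc59*, *Abi3* and *Tmem101* were higher in every ko mouse and *Dusp3* and *Cd300lg* lower. Among all 16739 genes tested, 3.2% had no overlap, 1.79% higher and 1.4% lower. The list was chosen with this contrast known, so nothing is read from the count. None of the 10 had an adjusted p under 0.05 in edgeR, where 0.00597% of genes did, *Sost* alone. With an unadjusted p under 0.05 there were 4 (*Lrrc59*, *Cd300lg*, *Dusp3* and *Ikzf3*), against 5.02% of all genes. DESeq2 called 1 of the 10, *Lrrc59*, with an adjusted p of 0.0152, against 0.114% of the 13156 genes to which it gave an adjusted p. The median log2 fold change of the 10 was -0.12, and 0.00 over all genes tested.

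*Lrrc59*, which encodes a leucine-rich repeat protein of the endoplasmic reticulum membrane that binds ribosomes, was at 142, 132, 139 and 126 CPM in het mice 1 to 4. It was at 156, 164, 162 and 158 CPM in ko mice and at 126, 128, 144 and 142 CPM in WT mice. Every ko mouse lay above every mouse of the other groups, which overlapped each other. The log2 fold change was 0.25 (SE 0.0522, edgeR adjusted p = 0.901) for ko minus het and 0.25 (SE 0.0637, adjusted p = 1) for ko minus WT, comparisons that share the ko mice. For het minus WT it was 0.00 (SE 0.0697). Its exons share 221 bases with *Eme1* on the other strand, and the strand setting of the counting is not given in the sources used here. *Eme1* itself was at 16.3 ± 1.083 CPM in het and 16.3 ± 2.74 CPM in ko mice. Transcripts of osteoblasts were summed over 12 genes at 42424 to 66777 CPM in het, 50124 to 81512 in ko and 27533 to 69368 in WT mice, with 11 of the 12 higher in ko than het mice, none past an adjusted p of 0.05 in edgeR and 3 past an unadjusted one. All 12 were higher in ko than WT mice (median log2 fold change 0.47) and in het than WT mice (0.20), again with none past an adjusted p of 0.05 and with 2 and 0 past an unadjusted one. The part of these in the *Lrrc59* values was not tested.

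*Abi3*, an adaptor of the WAVE complex that shapes the actin skeleton and is known from myeloid cells and microglia, was the only one of the 10 whose 3 groups were all apart. It was at 18.9, 19.2, 18.6 and 18.4 CPM in WT mice, at 20.0, 21.8, 20.7 and 22.01 CPM in het mice and at 23.4, 24.2, 22.7 and 23.2 CPM in ko mice. The groups were thus ordered WT, het and ko, with the gap between the latter pair at 22.01 against 22.7 CPM. Its log2 fold change was 0.14 (SE 0.0631) for ko minus het, 0.18 (SE 0.0630) for het minus WT and 0.32 (SE 0.0595) for ko minus WT, with edgeR adjusted p of 0.901, 1 and 1. DESeq2 gave an adjusted p of 0.00246 for the last. Macrophage and monocyte transcripts, 12 genes summed, overlapped between groups, at 1192 to 1460 CPM in het, 1174 to 1434 in ko and 1127 to 1360 in WT mice. Their mean sums, at 1269, 1307 and 1342 CPM in WT, het and ko mice, were in the order of *Abi3*. Of the 12, 11 were higher in het than WT, 10 in ko than WT and 9 in ko than het mice, with 0 at an adjusted p under 0.05 in edgeR and 0, 1 and 0 at an unadjusted one. The part of these cells in the *Abi3* values was not tested. *Abi3* exons overlap those of *Gngt2*, *Phospho1* and *Zfp652* on the other strand. Summed over these 3 genes the overlap is 4855 bases, against 4153 exon bases of *Abi3*, so some bases are shared with more than 1 of them. Of these, *Phospho1*, a phosphatase of mineralizing cells, was at 30.0 ± 8.75, 33.9 ± 4.70 and 37.7 ± 4.41 CPM in WT, het and ko mice, groups that overlapped. *Gngt2* was at 21.3, 22.4 and 22.1 CPM and *Zfp652* at 79.6, 78.0 and 75.6 CPM on average in the same order of groups, which overlapped as well. The reads of *Abi3* and its overlapping partners cannot be told apart without strand, which also limits the level per kilobase given for *Abi3* above.

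*Ikzf3*, which encodes the lymphocyte transcription factor Aiolos, was at 43.3, 49.3, 43.9 and 43.4 CPM in WT mice, 62.8, 47.4, 44.0 and 53.5 CPM in het mice and 66.1, 64.1, 72.8 and 54.8 CPM in ko mice. All ko mice were above all WT mice, and 1 of them, mouse 4, fell below the highest het mouse. In log2 terms the difference was 0.31 (SE 0.124, edgeR adjusted p = 0.901) for ko minus het and 0.53 (SE 0.0937, adjusted p = 1) for ko minus WT, where DESeq2 gave an adjusted p of 0.00248. het minus WT was 0.21 (SE 0.113), and 0.11 without het mouse 1, the highest. B cell transcripts, 12 genes that do not include *Ikzf3*, summed to 772 to 884 CPM in WT, 730 to 977 in het and 807 to 1049 in ko mice. Of the 12, 11 were higher in ko than WT mice, 10 in ko than het mice and 11 in het than WT mice. None was past an adjusted p of 0.05 in edgeR, and 2, 1 and 1 were past an unadjusted one. Of 11 T and NK cell genes, 10 were higher in ko than het mice and 11 in ko than WT mice, with 0 past either threshold. In whole bone RNA, more cells of a type and more RNA per cell cannot be told apart, and the part of lymphocytes in the *Ikzf3* values was not tested.

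*Dusp3*, the dual-specificity phosphatase VHR that acts on MAP kinases and the immediate neighbour of *Sost*, was at 53.6, 52.3, 61.9 and 64.8 CPM in het mice, 51.7, 45.6, 48.9 and 42.4 CPM in ko mice and 51.3, 53.2, 63.3 and 61.4 CPM in WT mice. The highest ko value and the lowest het value, at 51.7 and 52.3 CPM, were nearly equal, and the WT mice overlapped both groups. The log2 fold change was -0.30 (SE 0.0928, edgeR adjusted p = 0.901) for ko minus het, -0.27 (SE 0.0950, adjusted p = 1) for ko minus WT and 0.03 (SE 0.104) for het minus WT. Without WT mice 3 and 4 the comparisons with WT gave -0.14 and 0.17. The muscle genes, all lower in ko mice, moved in the same direction. With the log2 muscle sum as a covariate, a fit added after the values were seen, the log2 fold change between ko and het mice was -0.22 (SE 0.0767, edgeR adjusted p = 0.902). The antisense gene *Gm20659*, which shares 604 exon bases with *Dusp3*, had 0 to 6 counts per mouse.

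*Cd300lg* encodes nepmucin, a receptor of the immunoglobulin superfamily on capillary and high endothelial vessels. It was at 19.9, 24.5, 26.4 and 24.9 CPM in het mice, 18.5, 18.1, 16.3 and 18.7 CPM in ko mice and 22.4, 22.1, 26.5 and 23.0 CPM in WT mice. Every ko mouse was below every other mouse, and het mouse 1 was the nearest to them. On the log2 scale the difference was -0.42 (SE 0.0977, edgeR adjusted p = 0.901) for ko minus het and -0.39 (SE 0.0844, adjusted p = 1) for ko minus WT, where DESeq2 gave an adjusted p of 0.0508. het minus WT was 0.03 (SE 0.105). The sum of 12 endothelial genes, among them *Pecam1*, *Cdh5* and *Emcn*, was 743 to 787 CPM in het, 672 to 748 in ko and 625 to 774 in WT mice. Of the 12, 11 were lower in ko than het mice their median log2 fold change being -0.12, none past an adjusted p of 0.05 in edgeR and 3 past an unadjusted one, and 8 of 12 were higher in ko than WT mice with a median of 0.02. All 12 were higher in het than WT mice, with a median of 0.18 and 0 at an adjusted or unadjusted p under 0.05 in edgeR. The part of endothelial cells in the *Cd300lg* values was not tested in any of these comparisons.

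*Tmem101*, a transmembrane protein, was at 12.7, 12.9, 13.3 and 14.2 CPM in het mice, 14.5, 14.5, 14.3 and 15.3 CPM in ko mice and 12.8, 13.0, 14.0 and 14.7 CPM in WT mice. The ko mice were narrowly above the het mice and overlapped the WT mice. The log2 fold change was 0.15 (SE 0.0750, edgeR adjusted p = 0.901) and 0.11 (SE 0.0800, adjusted p = 1) in these comparisons. *G6pc3*, the glucose-6-phosphatase catalytic subunit found in most tissues and needed by neutrophils, was at 24.99, 25.7, 28.1 and 27.8 CPM in het mice, 25.5, 24.2, 24.5 and 24.5 CPM in ko mice and 26.1, 28.5, 30.1 and 28.7 CPM in WT mice. All ko mice were below all WT mice, and 1 of them was above a het mouse. The log2 fold change was -0.20 (SE 0.0651, edgeR adjusted p = 1) for ko minus WT and -0.11 (SE 0.0637, adjusted p = 0.901) for ko minus het. Neutrophil transcripts, 12 genes, summed to 20275 to 26331 CPM in het, 17233 to 24600 in ko and 17294 to 30849 in WT mice. Of the 12, 10 were lower in ko than het mice and 12 lower in ko than WT mice, with 0 at an adjusted p under 0.05 in edgeR and 1 and 0 at an unadjusted one. The part of neutrophils in the *G6pc3* values was not tested.

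The 2 transcription factors beside *Sost* on its *Col1a1* side did not separate the groups. *Meox1*, a homeobox factor of the somites, was at 3.67, 3.05, 3.54 and 4.01 CPM in het mice, 4.07, 2.80, 4.17 and 1.99 CPM in ko mice and 2.54, 1.74, 3.40 and 4.32 CPM in WT mice. *Etv4*, an ETS factor of the PEA3 group, was at 1.66, 1.02, 0.678 and 1.16 CPM, at 1.18, 0.863, 1.52 and 0.489 CPM and at 0.923, 0.444, 1.28 and 2.19 CPM in the same order of groups. Both were lower in some ko mice and higher in others than the het mean. For ko minus het the log2 fold change was -0.13 (SE 0.243, edgeR adjusted p = 0.940) for *Meox1* and -0.15 (SE 0.383, adjusted p = 0.955) for *Etv4*, so that the SE was larger than the difference in each. Against WT mice, ko mice differed by 0.12 (SE 0.334) in *Meox1* and by -0.25 (SE 0.499) in *Etv4*, with an edgeR adjusted p of 1 for both. Both signs changed with single mice left out, *Meox1* being at -0.06 without WT mouse 2 and *Etv4* at 0.19 without WT mouse 4 and 0.56 without WT mice 3 and 4.

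*Mpp3*, a membrane-associated guanylate kinase scaffold, varied more within groups than any other of the 10, with a coefficient of variation of 86.0% to 114%. It was at 0.605, 1.83, 2.15 and 7.45 CPM in het mice, 1.46, 0.506, 2.41 and 0.228 CPM in ko mice and 0.599, 0.273, 2.34 and 6.04 CPM in WT mice. The muscle sums of the same mice were 2519, 6564, 10601 and 29971 CPM, 9890, 2214, 12951 and 36.9 CPM, and 2762, 246, 13268 and 31836 CPM. In all 3 groups the order of the mice by *Mpp3* was the order by muscle transcripts. The log2 fold change of *Mpp3* was -1.37 (SE 0.833, edgeR adjusted p = 0.901) for ko minus het and -1.0 (SE 0.977, adjusted p = 1) for ko minus WT. The first was -0.39 without het mouse 4, and the second turned to 0.09 without WT mouse 4 and to 1.38 without WT mice 3 and 4. With the muscle sum as a covariate they were -0.47 (SE 0.480, adjusted p = 0.931) and -0.26 (SE 0.436, adjusted p = 0.870). The same covariate took *Meox1* from -0.13 to 0.07 (SE 0.168, edgeR adjusted p = 0.967) and *Etv4* from -0.15 to 0.02 (SE 0.362, adjusted p = 0.996) for ko minus het, and left *Lrrc59* at 0.24 (SE 0.0584) and *Cd300lg* at -0.42 (SE 0.113).

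**Figure D2:**
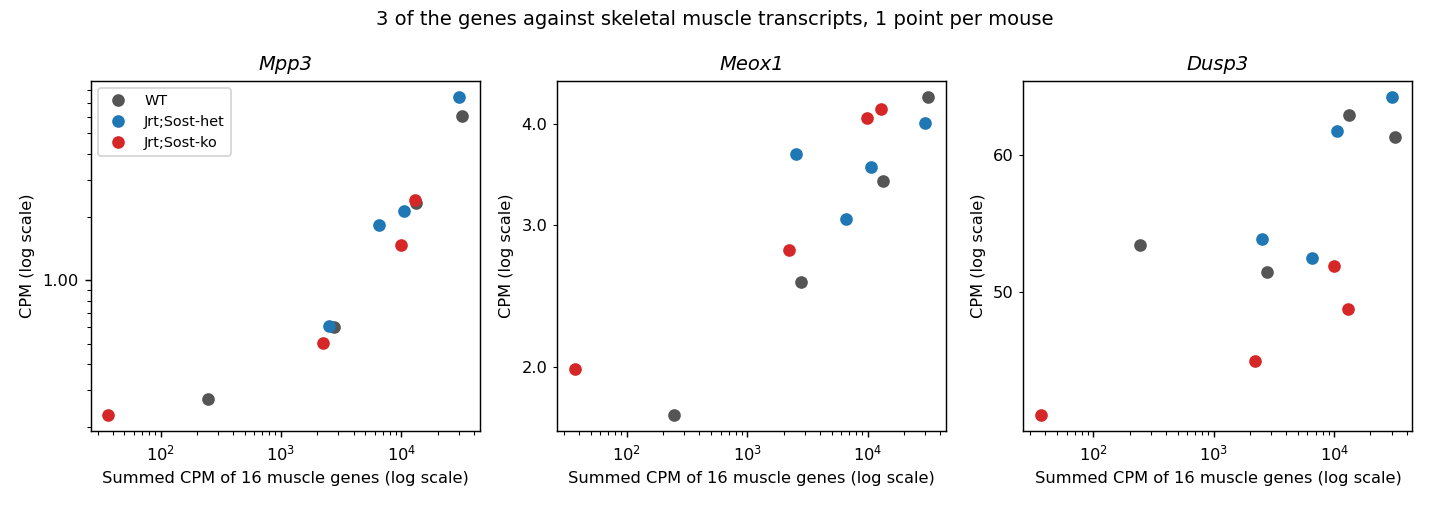
CPM of Mpp3, Meox1 and Dusp3 against the summed CPM of 16 skeletal muscle genes, both on log axes, with 1 point per mouse coloured by group. Mpp3 follows the muscle sum in every group, from 0.228 CPM at a sum of 36.9 to 7.45 CPM at 29971.

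The comparisons with WT use the same 4 WT mice, and ko mice also enter both of their comparisons, so the values below are not independent of one another. Between het and WT mice, only *Abi3* had no overlap, higher in het mice, against 1.54% of the 16775 genes tested in either direction, 0.739% higher and 0.799% lower. *Abi3* was also the only one with an unadjusted p under 0.05, against 2.14% of all genes, and edgeR and DESeq2 gave 0 adjusted p under 0.05 among the 10 and 0% among all genes. Between ko and WT mice, 5 had no overlap, namely *Lrrc59*, *Abi3* and *Ikzf3* higher and *Cd300lg* and *G6pc3* lower, against 2.4% of the 17155 genes tested, 1.29% higher and 1.11% lower. An unadjusted p under 0.05 was given to 6, against 3.89% of all genes, and an adjusted p under 0.05 to 0 in edgeR, where 0.00583% of genes had one, and to 2 in DESeq2 (*Abi3* and *Ikzf3*), where 0.0886% did. Without WT mice 3 and 4, 3 had no overlap between het and WT mice (*Abi3*, *Meox1* and *Mpp3*) and 6 between ko and WT mice, with *Tmem101* added to the 5. With only 2 WT mice left, 32.8% and 24.3% of all genes had no overlap in these comparisons, so nothing is read from either count. Without these mice the log2 fold change for ko minus WT was 0.34 in *Lrrc59*, 0.30 in *Abi3*, 0.48 in *Ikzf3*, 0.61 in *Meox1*, -0.31 in *Cd300lg*, 0.19 in *Tmem101* and -0.14 in *G6pc3*. For het minus WT it was 0.10, 0.17, 0.18, 0.75, 0.12, 0.06 and -0.02 in the same genes, 0.72 in *Etv4* and 2.76 in *Mpp3*. With all mice, het minus WT was 0.25 (SE 0.271) in *Meox1*, -0.10 (SE 0.468) in *Etv4* and 0.37 (SE 0.979) in *Mpp3*. It was -0.04 (SE 0.0871) in *Tmem101* and -0.09 (SE 0.0746) in *G6pc3*.

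**Figure D3:**
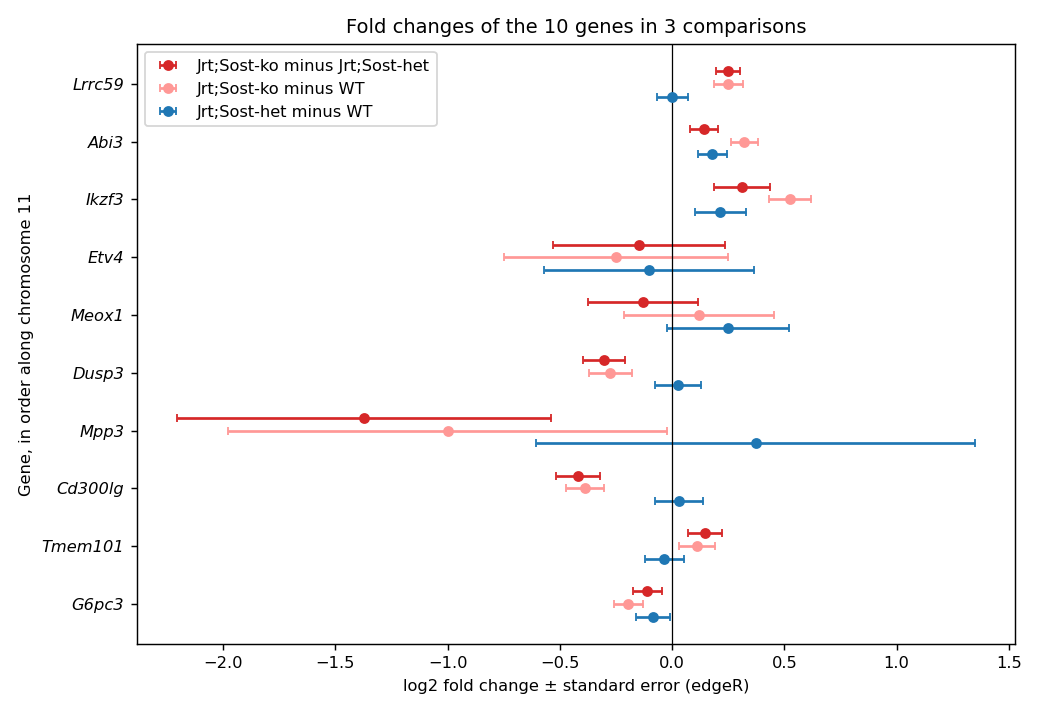
Log2 fold change from edgeR ± SE derived from its F statistic (horizontal axis), for the 3 comparisons of groups of 4 mice. The 10 genes are in order along chromosome 11 (vertical axis). The comparisons share groups, and Mpp3, Etv4 and Meox1 have the widest errors, up to 0.979 for Mpp3 in het minus WT.

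The genes of the region that remain were left after the 10 had been taken out on these same values, which lowers the share without overlap among them, so each share is given with and without the 10 and nothing is read from it. Between *Col1a1* and *Sost*, 167 other genes were tested between ko and het mice, and 6 of them (3.59%) had no overlap, 3 higher and 3 lower. With the members that lie there it was 7 of 171 (4.09%). Their median log2 fold change was -0.01, and 82 were higher and 85 lower. Within 0.5 Mb of *Sost*, 2 of 24 other tested genes (8.33%) had no overlap, and 5 of 31 (16.1%) with the members. Within 0.5 Mb of *Col1a1* it was 0 of 20, and 1 of 21 with *Lrrc59*. In the 10 Mb on either side of the interval it was 10 of 196 (5.10%), and 14 of 202 (6.93%) with the members, and in the rest of chromosome 11, which holds no member, 44 of 973 (4.52%). No class held a gene with an adjusted p under 0.05 in edgeR, and an unadjusted p under 0.05 was given to 7, 2, 0, 9 and 40 genes of these classes, and to 8, 4, 1, 12 and 40 with the members. For ko against WT mice the interval held 6 of 173 other genes without overlap (3.47%, against 2.4% of all genes) and the 0.5 Mb around *Sost* 0 of 24, which with the members were 8 of 177 (4.52%) and 2 of 31 (6.45%). An unadjusted p under 0.05 was given to 11 of the 173 (6.36%, against 3.89% of all genes) and to 1 of the 24, and with the members to 13 of 177 (7.34%) and 4 of 31 (12.9%). For het against WT mice it was 0 of 166 and 0 of 24, with 3 and 0 at an unadjusted p under 0.05, and with the members 1 of 170 and 0 of 31, with 4 and 0.

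**Figure D4:**
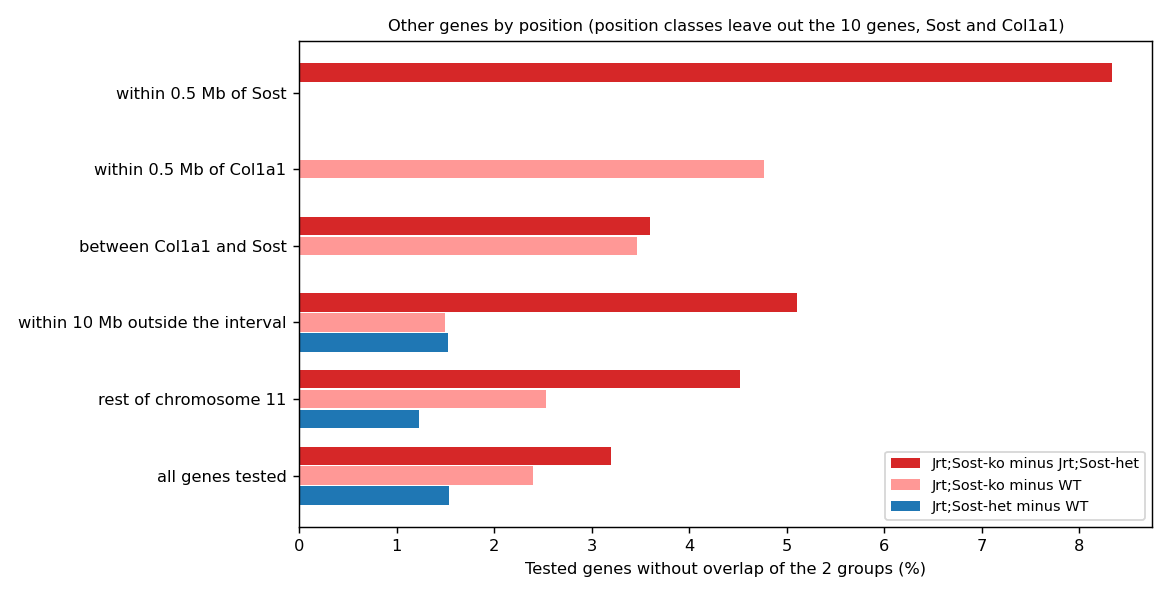
Percentage of tested genes without overlap between groups (horizontal axis), by position on chromosome 11 and in 3 comparisons, with the 10 genes, Sost and Col1a1 left out of the position classes. The highest bar, 8.33% within 0.5 Mb of Sost in ko against het mice, stands for 2 of 24 genes, and is 5 of 31 with the 10 genes kept in.

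*Dhx8*, an RNA helicase of the spliceosome and the nearest tested protein-coding gene outside the 10 on the *Col1a1* side of *Sost*, lies 195099 bp from it. It was at 65.1 ± 2.08 CPM in het, 66.0 ± 2.65 in ko and 66.7 ± 5.58 in WT mice (n = 4 each), a log2 fold change of 0.02 (SE 0.0491, edgeR adjusted p = 0.956) for ko minus het. Around *Col1a1*, *Xylt2*, *Mrpl27*, *Eme1*, *Sgca*, *Ppp1r9b* and *Samd14* overlapped between all groups. *Sgca*, a sarcoglycan of muscle, was at 10.2 ± 7.86, 6.60 ± 3.75 and 9.94 ± 10.4 CPM in het, ko and WT mice, and *Ppp1r9b* at 231 ± 16.2, 249 ± 12.2 and 246 ± 23.2 CPM. The lowest edgeR adjusted p among these genes in the 3 comparisons was 0.901.

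The other genes without overlap between ko and het mice, 6 between *Col1a1* and *Sost* and 2 within 0.5 Mb of *Sost* on its far side, are named here after their values were seen. *Nags*, the N-acetylglutamate synthase gene 178497 bp from *Sost*, was at 0.756, 1.084, 1.17 and 0.827 CPM in het mice and 0.143, 0.684, 0.401 and 0.294 CPM in ko mice, from 20 to 32 and from 4 to 23 counts. In WT mice it was at 1.996, 1.54, 1.62 and 0.609 CPM, so that WT mouse 4 overlapped the ko mice. *Lsm12*, 195481 bp from *Sost*, was higher in every ko than het mouse, at 42.5 ± 1.68 against 37.7 ± 2.56 CPM. *Ramp2*, a receptor-modifying protein of endothelial adrenomedullin signalling that lies 702911 bp from *Sost*, was lower, at 9.21 ± 1.19 against 13.2 ± 1.96 CPM. Log2 fold changes were -1.30 (SE 0.401), 0.18 (SE 0.0618) and -0.52 (SE 0.139), each with an edgeR adjusted p of 0.901. *Zfp385c*, a zinc finger gene 1270002 bp from *Sost*, was at 0.983, 0.542, 1.05 and 0.869 CPM in het mice and 0.250, 0.119, 0.455 and 0.261 CPM in ko mice, from 16 to 28 and from 4 to 17 counts. WT mice, at 0.574, 0.376, 1.26 and 1.080 CPM, overlapped both. Its log2 fold change was -1.63 (SE 0.390, edgeR adjusted p = 0.901) for ko minus het and -1.58 (SE 0.490, adjusted p = 1) for ko minus WT. The remaining 4 were *Kpnb1* (0.17), *E130012A19Rik* (0.44), *Ccr7* (0.31) and *Ezh1* (-0.16), given by their log2 fold change for ko minus het. In WT mice *Ramp2* was at 9.88, 5.30, 12.7 and 13.6 CPM, which overlapped both other groups, and the log2 fold change for ko minus WT was -0.17 (SE 0.269). *Lsm12* was at 40.2 ± 2.45 CPM in WT mice, which also overlapped both, and its log2 fold change for ko minus WT was 0.09 (SE 0.0598).

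**Figure D5:**
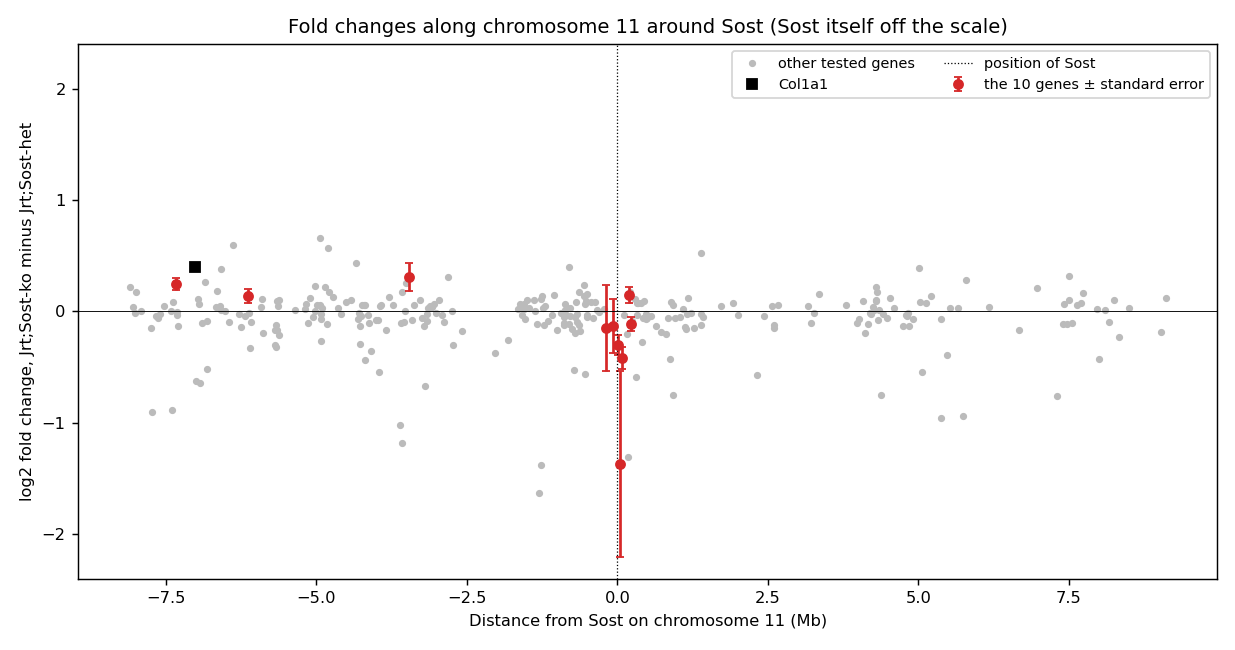
Log2 fold change of ko minus het (edgeR) against distance from Sost in Mb for the tested genes within 10 Mb, with the 10 genes in red with their SE, Col1a1 as a square and Sost, at -5.87, off the scale. The 10 lie on both sides of 0, and most other genes are close to it, with a median of -0.01 for those between Col1a1 and Sost.

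Over the 12 mice, the genes whose log2 CPM was most like each of the 10 were found among 17245 expressed genes by Pearson's r, as a description in which mice of 3 genotypes, muscle content and depth are shared by all points. *Mpp3* was most like *Pgm2*, *Asb10* and *2310040G24Rik* (r = 0.99 each), *Meox1* most like *Mstn*, the myostatin gene (0.97), and *Etv4* most like *Zbtb20* (0.95). *Dusp3* was most like *Slc16a3* (0.94), a lactate transporter that also lies on chromosome 11, *Tmem101* most like *Eprs* (0.94), which encodes a tRNA synthetase, and *Lrrc59* most like *H13* (0.93), which encodes the signal peptide peptidase of the endoplasmic reticulum. *G6pc3* was most like *Rbm44* (0.92), *Cd300lg* most like *Kcns3* (0.91), *Ikzf3* most like *Gopc* (0.91) and *Abi3* most like *Sfxn2* (0.87). *Sost* was itself most like *Nags* (0.86) and *Cd300lg* (0.86) on chromosome 11, and then *Tex15* (0.85) on chromosome 8. As *Sost* was at most 1.28 CPM in ko mice and at least 26.8 in the others, its r depends largely on which genes were lower in ko mice. *Cd300lg* was chosen and *Nags* was named on such values, so nothing about position is read from their r. Among the 10, the closest pairs were *Etv4* with *Meox1* (0.85) and *Dusp3* with *G6pc3* (0.85), and the most opposed was *Ikzf3* with *Cd300lg* (-0.86).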

How the data were processed

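STAR alignments of the read pairs to GRCm38 underlie the raw counts that the authors deposited per Ensembl gene, which are not normalized. The submitters' processing notes also name bcl2fastq 2.20, Cufflinks, Cuffdiff and DESeq. The counting tool, its strand setting and the annotation release are not given in the sources used here. The authors' comparison tables, which hold log2 fold changes, p-values and 96 columns of counts per mouse, and the single-mouse files were not used.

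Groups follow the genotype labels, with the heterozygous *Sost* genotype of het mice taken from the study's methods. Each group had n = 4, and p-values set the difference between groups against the spread between mice. In edgeR that spread is estimated with information shared across genes. For every comparison the 8 mice concerned were fitted alone, with edgeR 4.0.16 under R 4.3.3 (filterByExpr, TMM, glmQLFit and glmQLFTest, Benjamini-Hochberg adjustment over all genes tested). The SE printed is the absolute log2 fold change divided by the square root of the F statistic of that edgeR test, which gives no SE itself. CPM used TMM over 12 libraries, and log2 CPM a prior count of 2. "No overlap" means that every mouse of one group exceeded every mouse of the other. Depth was 24366061 to 44418863 counts per mouse.

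Alternatives were DESeq2 1.42.0, edgeR with DESeq2 size factors, upper-quartile scaling or scaling factors computed without muscle, blood and skin genes, no low-count filter, a filter of 10 counts per mouse, 1 fit over all mice, limma-voom with quality weights (limma 3.58.1), leaving out each mouse, and leaving out WT mice 3 and 4. The muscle covariate and 4 other scalings for overlap were chosen after seeing the data. The functions were tested on simulated data. GENCODE M21 held 46574 of the 47069 genes (98.9%).

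The members and the 11 marker lists were chosen with earlier results of these data known. Genes named are the 10, *Sost*, *Col1a1*, the 3 nearest tested protein-coding genes on each side of both, the genes most like each member, and marker genes. Others are marked.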

Additional observations from a re-analysis of the deposited data

Results flagged for a closer look

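*Ikzf3* in WT mice had a single high animal, mouse 2 at 49.3 CPM against 43.3 to 43.9 in the others. The gap to its nearest neighbour was 0.907 of the group's range, above the critical value of 0.829 for 4 samples. With mouse 2 left out, *Ikzf3* also had no overlap between het and WT mice, as had 2.90% of all genes tested.

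The summed CPM of 11 T and NK cell genes in het mice likewise had 1 high animal, at 127 CPM, with a gap of 0.919 of the range. Of 69 groups examined in this way 2 stood out, and chance gives about 5%.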

How the results depend on the processing

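Between ko and het mice, *Lrrc59*, *Abi3*, *Ikzf3*, *Dusp3*, *Mpp3*, *Cd300lg*, *Tmem101* and *G6pc3* kept the sign of their log2 fold change under every alternative run, and *Etv4* and *Meox1* changed it under 3 and 2 of 17. In het against WT mice *Lrrc59* had the other sign under 9 of 18, *Dusp3* under 6, *Etv4* under 4, *Cd300lg* under 3 and *Tmem101* under 1, and *Mpp3* under 1 of 17. In ko against WT mice *Etv4* and *Meox1* had it under 3 of 18 each and *Mpp3* under 2 of 17. The number of the 10 without overlap was 5 to 7, 1 to 3 and 5 to 6 for ko against het, het against WT and ko against WT. The middle count was 1, between 1 and 2 with a mouse left out, and 3 without WT mice 3 and 4. Over all genes tested the share without overlap also rose, from 3.2%, 1.54% and 2.4% to at most 8.21%, 8.23% and 7.51% with a mouse left out, and to 32.8% and 24.3% in the last 2 without WT mice 3 and 4. DESeq2 called 1 of the 10 in the first comparison and 2 in the last, where it called 3 genes between *Col1a1* and *Sost* with *Med1* the third, against 0 in edgeR. At an unadjusted p under 0.05 in het against WT mice, 1 of the 10 became 0 to 2 with a mouse left out, and 2 with the muscle covariate or without WT mice 3 and 4. Of all genes tested, 2.14% were at that level with all mice, 1.59% to 9.40% with a mouse left out, 3.31% with the covariate and 19.8% without WT mice 3 and 4. Genes between *Col1a1* and *Sost*, members included, at that level numbered 8, 4 and 13 in the 3 comparisons, of 171, 170 and 177 tested. They numbered 35, 18 and 43 without a filter, and 15 in the first under limma-voom. The share of all genes at that level was 5.02%, 2.14% and 3.89%. Without a filter, with 29174, 30284 and 30573 genes tested, it was 4.25%, 2.70% and 3.88%. Under limma-voom it was 8.86% in the first. With a mouse left out the genes of the interval numbered 4 to 12, 2 to 13 and 8 to 16. The share of all genes was then 3.01% to 7.40%, 1.59% to 9.40% and 2.11% to 6.95%. With the muscle covariate the genes of the interval numbered 9 and 23 in the last 2 comparisons, and 30 and 22 without WT mice 3 and 4. In ko against WT mice the share of all genes was 3.89% with all mice, 10.5% with the covariate and 12.7% without WT mice 3 and 4. The cause of these shifts was not tested. *Sost* between ko and het mice had an adjusted p of 0.479 under limma-voom and of 0.117, 0.138 and 0.0805 in edgeR without ko mouse 1, 3 or 4, while its log2 fold change was -5.66, -5.81, -5.75 and -5.66 against -5.87 with all mice. Between ko and WT mice its adjusted p was 0.117, 0.104 and 0.0600 without ko mouse 1, 3 or 4 and 0.0573 and 0.0570 without WT mouse 1 or 3, at log2 fold changes of -6.32 to -6.07 against -6.29. No paired analysis was possible because the labels give no replicate numbers that groups share. Depth limits *Meox1*, *Etv4*, *Mpp3*, *Nags* and *Zfp385c*, with under 100 counts in most mice.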

Other observations

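Of the 14 genes that DESeq2 called between ko and WT mice, 4 lie on chromosome 11, and 7 others fall into clusters on 2 further chromosomes. The 4 are the disrupted *Sost*, *Abi3* and *Ikzf3*, which were chosen on these values, and *Med1*, so nothing is read from their count. Besides *Sost* and *Col1a1*, chromosome 11 held 177 genes in the interval, 206 in its 10 Mb flanks and 989 elsewhere. These were among the 17155 genes tested in edgeR. On chromosome 19, *Scd1*, *Tmem180*, *Sfxn2* and *Col17a1* lie within 3297640 bp, with log2 fold changes of 0.69, 0.66, 1.02 and -4.54. *Col17a1*, a collagen of skin, is the only one of these that was lower. The epidermis genes, 6 of 6 tested lower in ko than WT mice with a median of -2.72, moved in the same direction, and their part in the *Col17a1* value was not tested. On chromosome 3, *Gm38357*, *Mgst2* and *Gm37261* lie within 450761 bp, with 2.62, 0.65 and 3.62. *Sfxn2*, *Gm37261* and *Irg1*, another of the 14, were also the 3 genes most like *Abi3* over the 12 mice. These genes were named after their values were seen, and neither the clustering nor the alleles carried there were tested. Between ko and het mice DESeq2 called 15 genes on 13 chromosomes. Of these *Sost* and *Lrrc59*, the latter chosen on these values, lie on chromosome 11.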
